A study of Canis lupus familiaris with 36 samples.

Results

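In CLBL-1 cells, 83 of the 30424 genes in the count table had a raised level when Ibrutinib and AS-605240 were given together for 24 h and a smaller ratio to the control at 72 h. They were chosen by their measured values. A gene entered when its mean level over 35 libraries was at least 2 CPM (a read count scaled to the total of its library), when the log2 ratio of the combination to DMSO was at least 1 at 24 h and under 0.5 at 72 h, and when DMSO itself moved by less than 0.8 on the log2 scale from 24 h to 72 h. Ratios were formed from group means of CPM with 0.5 CPM added. The level limit was met by 10037 genes, and 398 of those reached the limit at 24 h. Of these, 262 also had DMSO within its limit, and the ratio of 83 of the 262 was under the limit at 72 h.

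CLBL-1 is a cell line of canine diffuse large B-cell lymphoma, and all libraries come from this 1 line. Cells of the passages p121, p126 and p128, called replicates 1, 2 and 3, were incubated for 24, 48 or 72 h with 1 µM Ibrutinib (Ibr), with 5 µM AS-605240 (AS), with both at these concentrations (Ibr + AS) or with DMSO, the solvent of the inhibitors. The DMSO control held as much solvent as the combination did. Each of the 12 groups has 3 libraries of poly-A RNA. The third library of Ibr at 72 h was left out of the main fit and of the group levels, so that this group has 2, and the same choice was made in the study. An alternative fit of all 36 libraries put it back.

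Ibrutinib blocks BTK, a kinase that carries the signal of the B-cell receptor from the membrane to calcium, NF-κB and MAP kinase signalling. AS-605240 inhibits PI3K, with the gamma isoform as its main target, and PI3K makes the membrane lipid to which BTK and AKT bind. Both agents therefore act near the top of the same signalling network, on which B-cell lymphomas often depend for growth and survival.

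Depth was even, with 9941919 to 14703839 reads on genes per library (median 11888025). Replicate libraries varied beyond the sampling of reads (chi-square over its degrees of freedom from 1.87 to 26.9 in 36 pairs). These pairs include those with the library left out elsewhere, Ibr 72 h replicate 3. Passages are separate cultures of 1 line. Passage was a term of the fits, so p-values rest on the spread between libraries of a group that remains after it, shared over the groups. The 40 marker genes of B cells, T cells, myeloid, stromal and epithelial cells could not serve to check the label of the line, because identifiers and symbols could be paired for 1 of them only, the myeloid marker LYZ.

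Of the 83 genes, 6 have a symbol here. PLA2G6 encodes a calcium-independent phospholipase A2, which frees fatty acids from membrane phospholipids. HACD4 encodes a dehydratase of the cycle that lengthens very long chain fatty acids. CYTH4 encodes a cytohesin, an exchange factor that activates ARF GTPases in membrane traffic. SUN2 encodes a protein of the inner nuclear membrane that joins the nucleus to the cytoskeleton, and ZBTB22 a BTB zinc finger protein. CCDC171 encodes a coiled-coil protein of which little is known. In the RefSeq annotation of the assembly UU_Cfam_GSD_1.0, SUN2, PLA2G6 and CYTH4 lie on 1 chromosome, with 13 protein-coding genes between SUN2 and PLA2G6 and 24 between PLA2G6 and CYTH4. CCDC171 and HACD4 share another, with 15 between them. Pairing was possible only for a stretch of the identifiers, which bears on such closeness. The other 77 genes are described by their counts and ranges.

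The 83 genes spanned a wide range of levels, from 2.04 to 1181 CPM with a median of 19.3 CPM, and the median over all 10037 genes at the level limit was 37.0 CPM. Of the 83, 25 were below 10 CPM, 47 between 10 and 100 CPM and 11 at 100 CPM or more. At 24 h, the log2 ratio of Ibr + AS to DMSO lay between 1.01 and 2.09 with a median of 1.18, and the median of the 10037 genes was -0.17. At 72 h it lay between -0.77 and 0.49 with a median of 0.27, against -0.04 for the 10037 genes. These are the values that chose the genes, and they are given as a description. The ratio at 72 h was still above 0 in 73 of the 83 genes. It was below 0 in 10, between 0 and 0.25 in 23 and at least 0.25 in 50.

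**Figure D1:**
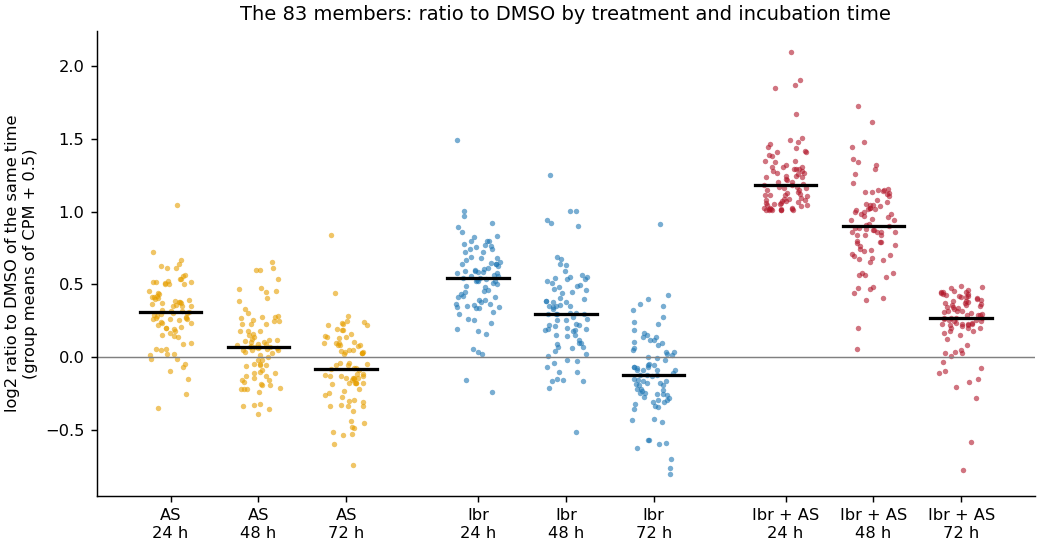
Log2 ratio of each treatment to DMSO of the same incubation time (vertical axis, group means of CPM plus 0.5 CPM) for the 83 genes, by treatment and incubation time. Each point is a gene and black bars are medians. The Ibr + AS points at 24 h and 72 h are set by the choice of the genes, and the medians at 24 h, 48 h and 72 h decrease under Ibr + AS (1.18, 0.90 and 0.27), Ibr (0.54, 0.30 and -0.12) and AS (0.31, 0.07 and -0.08).

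Genes just inside and just outside the limits were close in value. ZBTB22 and CCDC171 entered with a log2 ratio of 1.01 at 24 h. COL11A2, a fibrillar collagen chain, stayed out with 0.99 at 24 h. WFS1, a membrane protein of the endoplasmic reticulum, stayed out because DMSO was higher by 0.80 at 72 h than at 24 h, although its ratio was 1.12 at 24 h and 0.17 at 72 h.

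The ratio has the treated and the control libraries as its parts, and both differed between 24 h and 72 h in these genes. In bulk RNA, a change of the level per cell and a change in the mix of cells cannot be told apart. The level under Ibr + AS was lower at 72 h than at 24 h in 81 of the 83 genes, with a median log2 ratio of -0.56 (0.08 over the 10037 genes). The level with DMSO was higher at 72 h than at 24 h in 82 of them, with a median of 0.46 (-0.04 over the 10037 genes). The choice of the genes favours both differences, so they carry no test. The difference under Ibr + AS was the larger of the pair in 48 genes, with medians of -0.69 under Ibr + AS and 0.30 with DMSO, and SUN2 and CCDC171 belong here. The difference with DMSO was the larger in 35 genes, with medians of -0.29 and 0.59, and PLA2G6, HACD4, CYTH4 and ZBTB22 belong here. The level under Ibr + AS at 72 h was above the level with DMSO at 24 h in 82 of the 83 genes, with a median log2 ratio of 0.68. Over the 10037 genes this held for 4017, with a median of -0.09. This ratio too is formed from libraries that chose the genes, which favours a low DMSO level at 24 h, so it was not tested. In these values, the ratio to DMSO of the same time was smaller than at 24 h and still above 0 in most of the 83 genes.

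**Figure D2:**
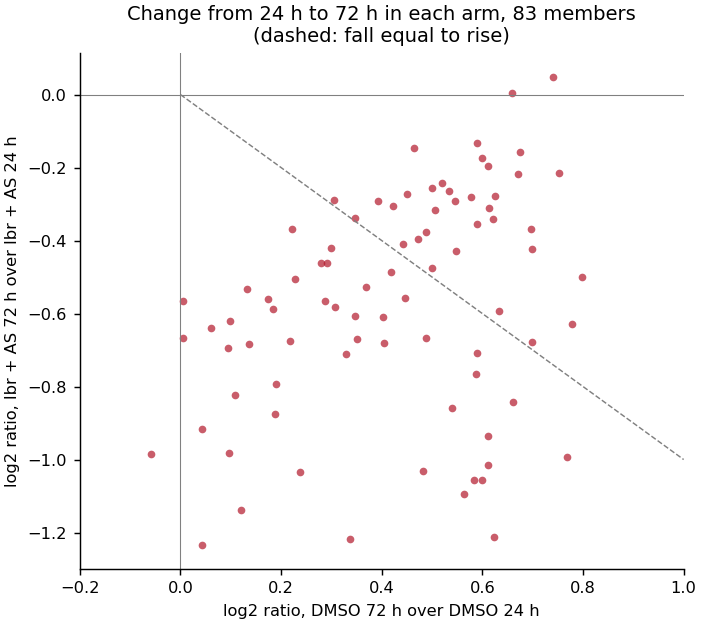
Change of the level from 24 h to 72 h with DMSO (horizontal axis, log2 ratio) and under Ibr + AS (vertical axis, log2 ratio) for the 83 genes, 1 point per gene. On the dashed line the decrease under Ibr + AS equals the increase with DMSO. Of the 83 points, 48 lie below the line and 35 above it, and 81 lie below 0 on the vertical axis.

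Libraries of 48 h had no part in the limits on the ratios, and they allow a test. The level limit used them along with all others, so a gene near 2 CPM may have met it through them. The lowest of the 83 genes had 2.04 and 2.05 CPM. At 48 h the genes were still raised under Ibr + AS. Every Ibr + AS library was above every DMSO library in 77 of the 83 genes (92.8%), and this held for 20.9% of the 10037 genes. No gene had every Ibr + AS library below every DMSO library, and 43.2% of the 10037 genes did. By the quasi-likelihood test of edgeR, with p-values adjusted over all genes tested after Benjamini and Hochberg, 80 of the 83 genes were higher at an adjusted p of at most 0.05, and 23.9% of the 10037 genes were. With a log2 fold change (FC) above 1 as a further condition, 52 of the 83 were higher, against 4.73% of the 10037. No gene of the 83 was lower by either rule, against 26.6% and 3.46% of the 10037. The median log2 FC was 1.07 (-0.04 over the 10037 genes) and the range 0.19 to 1.95. The table header numbers the libraries in 2 separate series, which no label explains. In replicate 2, the 24 h libraries and those of DMSO and Ibr at 48 h are in the first series. The other libraries of replicate 2 are in the second, so Ibr + AS and DMSO at 48 h differ in series there. The same holds in replicate 2 for AS and DMSO at 48 h, for Ibr + AS and Ibr at 48 h, and for 72 h and 24 h. With the series as a further term, the counts of 80 and 52 were 79 and 41. Without replicate 2 they were 76 and 38. Genes below 10 CPM had a median log2 FC of 1.20 with a median standard error (SE) of 0.20, and the 11 genes at 100 CPM or more had 0.86 with 0.10.

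In ratios of CPM, 76 of the 83 genes had their ratio to DMSO at 48 h between those of 24 h and 72 h. The limits set the ratios of 24 h and 72 h apart, which favours a value between them. This order is therefore a description with no test. The median ratio at 48 h was 0.90, and the ratio was at least 1 in 30 genes, between 0.5 and 1 in 45 and under 0.5 in 8. It was above the ratio of 24 h in 6 genes. By passage, the median over the genes at 48 h was 0.71, 1.03 and 0.89 for replicates 1, 2 and 3 (0.88 ± 0.16, SD, n = 3). Under Ibr + AS, the median log2 ratio of the level at 48 h to that at 24 h was -0.22 (0.01 over the 10037 genes). That of 72 h to 48 h was -0.35 (0.07 over the 10037 genes). Each of these ratios uses libraries that chose the genes, and the choice favours a decrease in both steps, so they were not tested.

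PLA2G6 had 15.9, 16.7 and 13.8 CPM with DMSO at 24 h and 43.7, 40.1 and 42.6 CPM under Ibr + AS. At 48 h it had 18.7, 13.2 and 16.8 CPM with DMSO and 36.8, 41.3 and 43.0 CPM under Ibr + AS. At 72 h the values were 28.8, 23.8 and 28.1 CPM with DMSO and 23.9, 27.6 and 29.8 CPM under Ibr + AS. The groups were apart at 24 h and 48 h and overlapped at 72 h, where every control library was above those of 24 h and every treated library below those of 24 h. PLA2G6 rose at 48 h by a log2 FC of 1.46 (SE 0.12, edgeR adjusted p = 7.13e-20). HACD4 had 18.5, 14.6 and 15.3 CPM with DMSO at 24 h and 36.9, 37.0 and 28.6 CPM under Ibr + AS. At 48 h the values of HACD4 were 15.2, 17.3 and 18.4 CPM with DMSO and 33.1, 38.0 and 35.8 CPM under Ibr + AS, and the groups did not overlap. HACD4 rose at 48 h by a log2 FC of 1.19 (SE 0.13, edgeR adjusted p = 2.31e-13). At 72 h it had 25.2, 24.0 and 23.9 CPM with DMSO and 24.9, 27.5 and 31.8 CPM under Ibr + AS, and the ranges overlapped. Both lipid enzymes had similar mean levels under Ibr + AS at 24 h and 48 h, of 42.2 and 40.4 CPM for PLA2G6 and 34.2 and 35.6 CPM for HACD4.

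CYTH4 had 46.1, 53.3 and 57.9 CPM with DMSO at 24 h and 103, 104 and 113 CPM under Ibr + AS. At 48 h it had 60.2, 57.4 and 61.0 CPM with DMSO and 99.5, 108 and 104 CPM under Ibr + AS, again without overlap. The rise of CYTH4 at 48 h was a log2 FC of 0.93 (SE 0.10, edgeR adjusted p = 1.99e-14). At 72 h the values of 82.8, 59.7 and 73.0 CPM with DMSO reached into those under Ibr + AS, which were 80.5, 93.3 and 90.4 CPM. SUN2, one of the 11 genes at 100 CPM or more, had 161, 166 and 172 CPM with DMSO at 24 h and 388, 364 and 369 CPM under Ibr + AS. At 48 h SUN2 had 174, 154 and 164 CPM with DMSO and 258, 268 and 258 CPM under Ibr + AS. Every treated library of SUN2 at 48 h was below those of 24 h and above every DMSO library. SUN2 rose at 48 h by a log2 FC of 0.80 (SE 0.09, edgeR adjusted p = 2.36e-13). At 72 h SUN2 had 194, 183 and 171 CPM with DMSO and 224, 240 and 233 CPM under Ibr + AS, which still did not overlap.

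ZBTB22 was low throughout, with 5.37, 4.83 and 4.77 CPM with DMSO at 24 h and 10.2, 9.25 and 12.2 CPM under Ibr + AS. At 48 h it had 5.90, 5.98 and 5.41 CPM with DMSO and 11.1, 11.6 and 11.9 CPM under Ibr + AS. At 72 h ZBTB22 had 7.41, 9.11 and 9.49 CPM with DMSO and 10, 11.2 and 11.6 CPM under Ibr + AS. The groups were apart at all of these times, and the DMSO libraries of 72 h lay above those of 24 h. ZBTB22 rose at 48 h by a log2 FC of 1.12 (SE 0.16, edgeR adjusted p = 1.39e-09). CCDC171 had 4.49, 3.60 and 2.11 CPM with DMSO at 24 h and 6.17, 7.91 and 8.03 CPM under Ibr + AS. At 48 h CCDC171 had 3.12, 2.68 and 3.98 CPM with DMSO and 6.40, 5.06 and 3.89 CPM under Ibr + AS, and the ranges overlapped. CCDC171 rose by a log2 FC of 0.76 (SE 0.22, edgeR adjusted p = 0.00508), and without replicate 1 the log2 FC was 0.54 and no longer past the threshold.

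**Figure D3:**
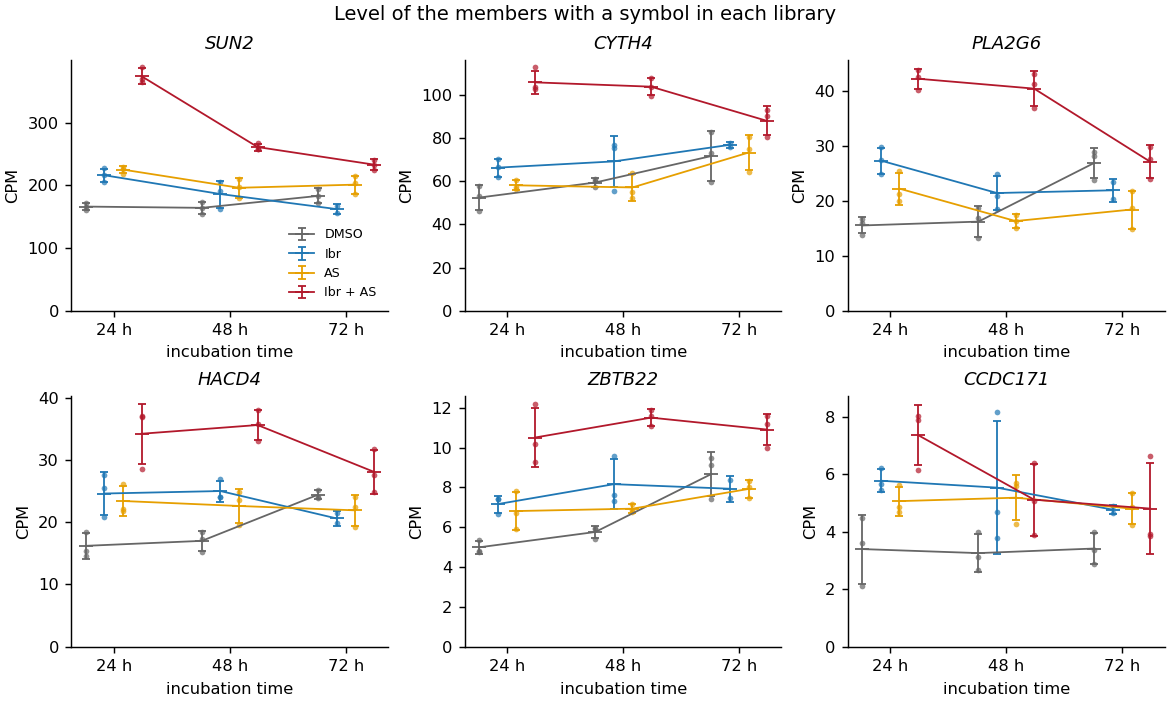
Level in CPM (vertical axis, from 0) by incubation time for the 6 genes with a symbol. Points are libraries, and lines and bars are the mean and SD of each treatment (n = 3, and 2 for Ibr 72 h). Under Ibr + AS, SUN2 has a mean of 374 CPM at 24 h and 233 CPM at 72 h, and the means of ZBTB22 lie between 10.5 and 11.5 CPM.

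Among the genes without a symbol, ENSCAFG00000048401 and ENSCAFG00000010195 had the largest ratios of CPM at 48 h. ENSCAFG00000048401 had 11.6, 8.51 and 8.19 CPM with DMSO and 40.6, 26.7 and 29.8 CPM under Ibr + AS. Its log2 FC was 1.91 (SE 0.24, edgeR adjusted p = 7.55e-07). ENSCAFG00000010195 had 5.48, 5.29 and 6.92 CPM with DMSO and 15.9, 21.4 and 19.9 CPM under Ibr + AS. Its log2 FC was 1.82 (SE 0.15, edgeR adjusted p = 6.46e-19). In both genes every treated library was above every control library. The smallest ratios belonged to ENSCAFG00000020432 and ENSCAFG00000017191, which did not pass, with log2 FCs of 0.19 (SE 0.18, edgeR adjusted p = 0.526) and 0.34 (SE 0.28, edgeR adjusted p = 0.421). ENSCAFG00000020432 had 6.07, 5.29 and 4.85 CPM with DMSO at 48 h and 5.79, 6.33 and 4.84 CPM under Ibr + AS. ENSCAFG00000017191 had 14.8, 9.35 and 11.7 CPM with DMSO and 12.9, 14.1 and 14.4 CPM under Ibr + AS, and both pairs of groups overlapped.

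The limits were also applied to 2 passages at a time, and the genes so chosen, which are other sets than the 83, were followed in the remaining passage. These values are a description with no test. They numbered 70, 107 and 111 when replicates 1, 2 and 3 were held out, of which 52, 62 and 68 are among the 83. In the held-out passage, the median log2 ratio of Ibr + AS to DMSO was 1.18, 1.03 and 0.98 at 24 h (1.06 ± 0.11, SD, n = 3), 0.61, 0.98 and 0.90 at 48 h (0.83 ± 0.20) and 0.03, 0.31 and 0.50 at 72 h (0.28 ± 0.24). Over all genes at the level limit the means of the medians were -0.17, -0.16 and -0.05. The median log2 ratio of 72 h to 24 h in the held-out passages was 0.39 ± 0.068 with DMSO and -0.43 ± 0.24 under Ibr + AS. Single genes varied more than the medians, and both limits on the combination were met in the held-out passage by 45 of 70, 36 of 107 and 28 of 111 genes.

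**Figure D4:**
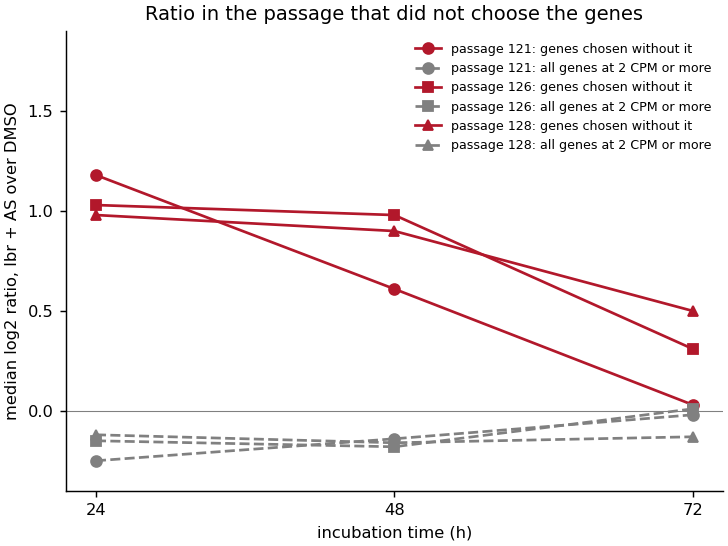
Median log2 ratio of Ibr + AS to DMSO (vertical axis) by incubation time in hours for genes chosen on the other passages (red, solid) and for all genes at 2 CPM or more (grey, dashed), 1 line per held-out passage. The red lines start between 0.98 and 1.18 at 24 h and end between 0.03 and 0.50 at 72 h, with the lowest end in passage p121.

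The ratios to DMSO were smaller under the single agents. At 24 h the median log2 ratio to DMSO was 0.54 under Ibr (-0.07 over the 10037 genes) and 0.31 under AS (-0.04), with 81 and 75 of the 83 genes above 0. At 72 h the median was -0.12 under Ibr (0.01 over the 10037 genes), with 57 of the 83 genes below 0 and 4919 of the 10037. Under AS it was -0.08 (0.03), with 49 of the 83 genes below 0 and 4649 of the 10037. These ratios share their DMSO libraries with the ratios that chose the genes and were not tested. The agents were compared with each other at 24 h, where neither group had been used in the limits on the ratios. Ibr was above AS in the fit in 74 of the 83 genes and in 4701 of the 10037, with median log2 FCs of 0.27 and -0.01. In edgeR's test 8 of the 83 were higher under Ibr at an adjusted p of at most 0.05 (0.897% of the 10037 genes) and 0 were lower (0.319%), and none passed with a log2 FC past 1 in either direction (0.199% and 0.0697%). At an unadjusted p of at most 0.05, 32 of the 83 were higher and 0 lower, against 563 and 402 of the 10037. The count of 8 was 37 in a fit of only these groups, 13 without replicate 1 and 4 without replicate 2. None of the 6 genes with a symbol passed, and their log2 FCs lay between -0.03 for SUN2 and 0.32 for PLA2G6.

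At 48 h the single agents could be tested against DMSO. The comparisons share the DMSO 48 h libraries, so each is given by itself. Ibr raised 34 of the 83 genes at an adjusted p of at most 0.05 in edgeR's test (9.68% of the 10037 genes) and 4 with a log2 FC above 1 (0.857%). It lowered 0 by either rule (8.26% and 1.19%). The median log2 FC was 0.37 (0.01 over the 10037 genes), and without replicate 3 the count of 34 was 20. ZBTB22 (0.55, SE 0.16, edgeR adjusted p = 0.0136), PLA2G6 (0.46, SE 0.13, edgeR adjusted p = 0.00675), HACD4 (0.62, SE 0.13, edgeR adjusted p = 0.000232) and CCDC171 (0.81, SE 0.22, edgeR adjusted p = 0.00947) rose under Ibr. The Ibr libraries of CCDC171 had 8.16, 3.78 and 4.69 CPM and overlapped those of DMSO. Those of PLA2G6, with 24.8, 18.5 and 20.9 CPM, overlapped too. SUN2 (0.24) and CYTH4 (0.27) did not pass. Under AS, 5 of the 83 genes were higher at an adjusted p of at most 0.05 (2.85% of the 10037 genes), 0 were lower (3.51%), and 0 passed with a log2 FC above 1 (0.13%) or below -1 (0.568%). The median log2 FC was 0.10 (0.01 over the 10037 genes). At an unadjusted p of at most 0.05, 19 of the 83 were higher and 3 lower, against 1204 and 954 of the 10037. HACD4 was among the 5, with a log2 FC of 0.43 (SE 0.13, edgeR adjusted p = 0.0352). It had 24.9, 19.5 and 23.5 CPM under AS. Without replicate 1 or without replicate 3 the count of 5 was 3. Without replicate 2, 5 genes were higher and 1 was lower.

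Ibr + AS was above each agent alone at 48 h. Against Ibr, 69 of the 83 genes were higher at an adjusted p of at most 0.05 in edgeR's test (16.1% of the 10037 genes), 12 with a log2 FC above 1 (1.66%), and 0 were lower by either rule (18.6% and 0.907%). The median log2 FC was 0.64. The count of 12 was 19 without replicate 1 and 5 without replicate 2. With the numbering series of the table header as a further term, 65 genes were higher, 12 of them with a log2 FC above 1. Against AS, 78 were higher (21% of the 10037 genes), 38 with a log2 FC above 1 (3.53%), and 0 were lower by either rule (25.9% and 2.13%), with a median of 0.98. PLA2G6 was higher under Ibr + AS than under Ibr by 0.99 (SE 0.12, edgeR adjusted p = 3.92e-11), from 24.8, 18.5 and 20.9 CPM under Ibr. It was higher than under AS by 1.42 (SE 0.12, edgeR adjusted p = 1.13e-18), from 17.4, 15 and 16.4 CPM under AS. SUN2, CYTH4, ZBTB22 and HACD4 were also above both agents, by 0.56 to 0.66 against Ibr and by 0.52 to 0.96 against AS. CCDC171 differed from neither, with log2 FCs of -0.04 (SE 0.21, edgeR adjusted p = 1) against Ibr and 0.07 (SE 0.21, edgeR adjusted p = 0.902) against AS.

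The combination was also set against the sum of the single changes. At 48 h its log2 FC exceeded the sum of those of Ibr and AS in 70 of the 83 genes and in 4683 of the 10037, with medians of 0.55 and -0.03. In edgeR's test of this contrast, 40 of the 83 genes were above the sum at an adjusted p of at most 0.05 (10.3% of the 10037 genes), 15 of them by more than 1 (1.97%), and 0 were below it by either rule (13.9% and 1.17%). PLA2G6 exceeded the sum by 0.96 (SE 0.17, edgeR adjusted p = 1.75e-05) and CYTH4 by 0.69 (SE 0.14, edgeR adjusted p = 0.000105). For SUN2 (0.28, SE 0.12, edgeR adjusted p = 0.128), ZBTB22 (0.28, SE 0.22, edgeR adjusted p = 0.537), HACD4 (0.14, SE 0.18, edgeR adjusted p = 0.78) and CCDC171 (-0.73, SE 0.31, edgeR adjusted p = 0.11) the departure did not pass.

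**Figure D5:**
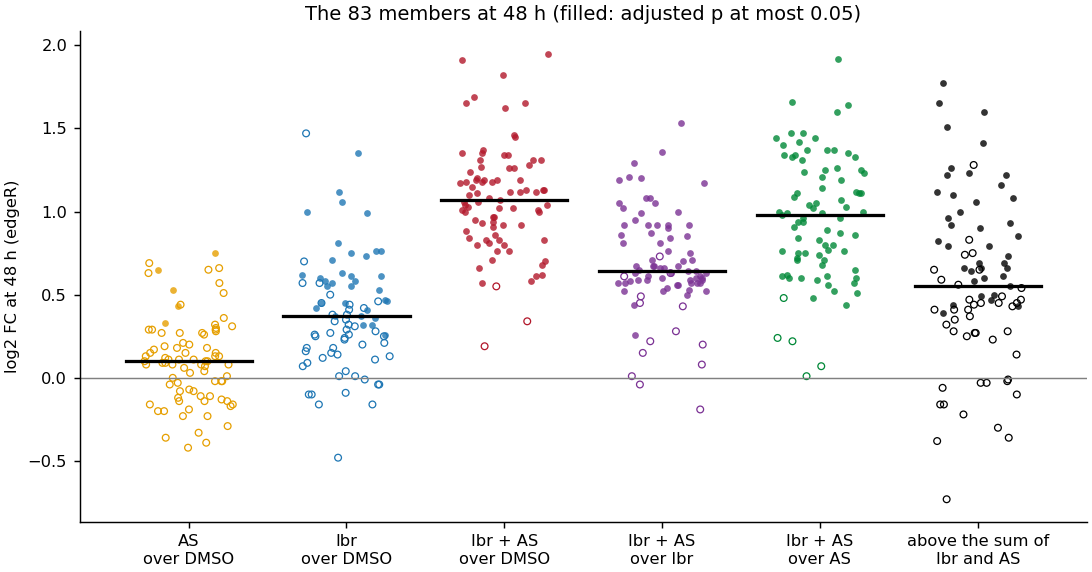
Log2 FC of the 83 genes at 48 h in edgeR's fit (vertical axis) in 6 comparisons, with AS, Ibr and Ibr + AS against DMSO, Ibr + AS against each agent, and Ibr + AS less the sum of both single changes. Filled points passed an adjusted p of at most 0.05, open points did not, and black bars are medians (0.10, 0.37, 1.07, 0.64, 0.98 and 0.55 from left to right).

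Within each single agent the change with time could be tested without the libraries used in the limits on the ratios. From 24 h to 72 h under Ibr, 17 of the 83 genes fell at an adjusted p of at most 0.05 in edgeR's test (3.69% of the 10037 genes), 6 of them by a log2 FC below -1 (0.428%), and 0 rose by either rule (4.06% and 0.807%). The median log2 FC was -0.20 (-0.01 over the 10037 genes). SUN2 had 217, 227 and 205 CPM under Ibr at 24 h and 156 and 167 CPM in the 2 libraries of 72 h. It fell by 0.46 on the log2 scale (SE 0.10, edgeR adjusted p = 0.0011). ENSCAFG00000048401 had 27.9, 24.8 and 29 CPM at 24 h and 14.1 and 11.8 CPM at 72 h. It fell by 1.26 on the log2 scale (SE 0.27, edgeR adjusted p = 0.00573). In both genes every library of 72 h was below every library of 24 h. Under AS, 8 of the 83 genes rose (6.61% of the 10037 genes) and 7 fell (3.44%), none by a log2 FC past 1 in either direction (1.08% and 0.159%), and the median was 0.08 (-0.01). These counts of 8 and 7 together gave 6 genes without replicate 2 and 4 without replicate 3. With the numbering series of the table header as a further term, 4 genes rose and 6 fell under AS, with a median of 0.01. In that fit 18 genes fell under Ibr, 7 of them by a log2 FC below -1, with a median of -0.26. CYTH4 had 57.3, 56.3 and 60.8 CPM under AS at 24 h and 64.6, 75.0 and 80.7 CPM at 72 h. It rose by a log2 FC of 0.32 (SE 0.10, edgeR adjusted p = 0.0301).

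None of the 6 genes with a symbol is on the lists of related processes, and the other 77 could not be looked up by symbol. The lists cover B-cell receptor signalling, B-cell differentiation, PI3K, mTOR and FOXO, NF-κB targets, immediate early genes, GTPase signalling and antigen presentation. They also cover the interferon response, the cell cycle, p53 targets, sterol synthesis, glycolysis and hypoxia, lysosome and autophagy, and stress and ATF4 targets. Symbols could be paired for 45 of their 388 genes, so absence from the lists says little. At 48 h under Ibr + AS, 17 of the 45 were higher in edgeR's test at an adjusted p of at most 0.05 (37.8%, against 23.9% of the 10037 genes) and 13 were lower (28.9%, against 26.6%). The sets are not alike, since NDRG1 and FBXO32, with means of 0.0738 and 1.4 CPM, are below the level limit of the 10037. FBXO32 is among the 17. Among B-cell receptor signalling genes, 0 of 4 passed (PIK3R1, MALT1, NFATC1 and INPP5D), with log2 FCs between -0.23 and 0.13. Of the NF-κB targets, IRF1 and IRF5 rose by log2 FCs of 1.27 and 1.21, TNFAIP3 fell by 0.44 on the log2 scale, and TNF did not pass. Both paired genes of sterol synthesis fell on the log2 scale, the enzyme SQLE by 1.72 and the transcription factor SREBF2 by 0.61. Of the immediate early genes, EGR1 fell by 2.69 on the log2 scale, MYC rose by a log2 FC of 0.96, and IER3 did not pass.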

How the data were processed

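RNA-seq of 36 libraries (12 groups of 3 passages) was analysed. The authors mapped single-end reads to CanFam3.1 with STAR 2.7.5a and deposited raw counts of reads per Ensembl gene, without normalization. The strand column kept is not given in the sources used here, so overlapping antisense genes cannot be told apart. The public title of DMSO 24 h replicate 3 gives passage 126 and its passage field 128, and 128 was used. Levels and ratios are CPM on column sums, computed from the deposited counts. Tests used edgeR 4.0.16 (R 4.3.3) on 35 libraries: genes with at least 2 reads (18670), TMM factors, robust quasi-likelihood fits with passage and group as terms, and Benjamini-Hochberg adjustment. The study used DESeq2 on protein-coding genes. edgeR was the main test here, on genes of all types, because the deposited table names no gene types. Libraries of the same passage correlated after removal of group means (median r 0.108, against -0.049 between passages), and passage was kept as the replicate block. Symbols came from the given parts of the supplementary tables (1068 identifiers). Named are all paired genes of the 83, the 2 largest and 2 smallest ratios at 48 h without a symbol, and the nearest paired genes on either side of the limits. The genes, lists and tests were chosen with earlier results of these data known. DESeq2 1.42.0, other factors, filters, terms and left-out libraries were tried as alternatives. Contrasts that chose the genes were not tested. No sequences are shown, since none were used here.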

Additional observations from a re-analysis of the deposited data

Results flagged for a closer look

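The effect of AS at 48 h differed with and without Ibr in 40 of the 83 genes by the edgeR contrast that sets the combination against the sum of the single changes (adjusted p of at most 0.05), in 15 of them by more than 1 on the log2 scale, and always toward a larger rise with Ibr. Among the genes with a symbol this held for PLA2G6 (0.96) and CYTH4 (0.69). Under AS alone PLA2G6 had 17.4, 15 and 16.4 CPM at 48 h, within the range of DMSO, and 36.8, 41.3 and 43.0 CPM with both agents. CYTH4 had 52.5, 55.0 and 64.0 CPM under AS alone and 99.5, 108 and 104 CPM with both.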

How the results depend on the processing

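The number of genes chosen was 146 with CPM on TMM effective library sizes, 77 of them among the 83. TMM moved the median over all 10037 genes at 24 h from -0.17 to -0.04 and that of the 83 genes from 1.18 to 1.30. At 48 h the medians moved from -0.16 to -0.04 and from 0.90 to 1.03. Leaving out each replicate gave 70 to 111 genes, and 33 of the 83 were chosen every time, SUN2 the only one of them with a symbol. A pseudocount of 1 CPM kept 70 of the 83. Without the 72 h libraries of replicate 3, 98 genes were chosen, 79 of them among the 83.

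Genes higher or lower at an adjusted p of at most 0.05 are counted together here. The count for AS against DMSO at 48 h was 5. It was 2 with RLE factors, 3 without a filter, 3 with all 36 libraries and 15 with only the groups of the comparison. It was 2 with the numbering series of the table header as a further term and 3 without the 72 h libraries of replicate 3. With a replicate left out it was 3 to 6. For Ibr against AS at 24 h it was 8, and 37 with only their own groups and 4 to 13 with a replicate left out. For AS at 72 h against 24 h it was 15, and 5 without the 72 h libraries of replicate 3 and 4 to 18 with a replicate left out. Without the replicate block these 3 counts were 2, 4 and 9, and no other count moved by over 1.5 times. For Ibr against DMSO at 48 h the count of 34 was 20 to 29 with a replicate left out. With a log2 FC past 1 as well, Ibr + AS against Ibr gave 5 to 19, and the counts of 0 for Ibr against AS at 24 h and for AS at 72 h against 24 h became at most 1. The held-out medians ranged from 0.98 to 1.18 at 24 h and from 0.03 to 0.50 at 72 h. The cause of these changes was not tested. Without replicate 1 or 2, Ibr 72 h has 1 library, assumed to vary like the rest.

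For Ibr + AS against DMSO at 48 h the count of 80 was 76 to 82 in the 12 alternatives and that of 52 was 38 to 54. Of 231 counts and medians recomputed, 206 kept within 1.5 times or 1 SD. Of 120 values of named genes at 48 h, 117 kept their side of the threshold. CCDC171 lost its call without replicate 1, ENSCAFG00000017191 passed in 2 settings, and none changed sign.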

Other observations

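The limit on DMSO kept out 104 genes that met every other limit, and DMSO was higher at 72 h than at 24 h in all 104. At 48 h, 86 of them were higher under Ibr + AS at an adjusted p of at most 0.05 in edgeR's test, and 23.9% of the 10037 genes at the level limit were. The 5 with a symbol were SQSTM1, an autophagy receptor, PLXNB2, a semaphorin receptor, HDAC10, a histone deacetylase family member, the transcription factor MYC and WFS1. Their log2 FCs at 48 h were 1.10 for SQSTM1, 0.81 for PLXNB2, 0.88 for HDAC10, 0.96 for MYC and 0.98 for WFS1, and in this order the log2 ratios of DMSO at 72 h to DMSO at 24 h were 1.00, 1.13, 0.86, 0.97 and 0.80.

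The library left out, Ibr 72 h replicate 3, was an outlier in the study. The median log2 ratio of the 83 genes to DMSO 72 h of the same passage was -0.12 in it, and -0.14 and -0.12 in replicates 1 and 2. Such a median does not show whether single genes were alike. With all 36 libraries, 21 of the 83 genes fell under Ibr from 24 h to 72 h at an adjusted p of at most 0.05 in edgeR's test, against 17 without it. Of these, 5 and 6 fell by a log2 FC below -1.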
